A study of Mus musculus with 19 samples.

Results

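TRBJ2-1 is a joining segment of the mouse T cell receptor beta chain, and its share of receptor reads is described here in CD4+ T cells from infarcted hearts and from lymph nodes. Members were found by a label. In each of the 19 deposited clone lists, every entry whose J column named TRBJ2-1 was taken, with its V segment and its read count. This gave 215705 of 2146950 entries, or 159580 of 1505703 distinct clones, where a clone is a CDR3 amino acid sequence with its TRBV and TRBJ segments. TRBJ2-1 was 1 of 11 TRBJ segments listed, and it was selected on these read shares, chosen by its higher share in infarcted hearts than in heart-draining nodes of infarcted mice. Every value of that contrast is therefore given as a description without a test.

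The beta chain is assembled in the thymus, where a V, a D and a J segment are joined and bases are trimmed and added at the joints. The joint encodes CDR3, the loop that mostly contacts the peptide held by the MHC molecule, while the V segment supplies the loops that mostly face the MHC molecule itself. The J segment sets the last residues of CDR3, so receptors that share TRBJ2-1 share an end and differ in what comes before it. A T cell that divides in response to antigen passes its rearrangement to all of its progeny, which are read as a clone.

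All libraries were made from sorted CD4+ TCRbeta+ T cells of Balb/c mice, 7 days after surgery or immunization. Hearts and mediastinal nodes (the nodes that drain the heart) came from mice with a myocardial infarction (MI), produced by tying off the left anterior descending coronary artery, with 3 heart and 3 node libraries, and sham nodes were mediastinal nodes after a thoracotomy without ligation (4 libraries). Axillary nodes came from mice given 100 µg of porcine cardiac myosin (2 libraries) or 1 mg of mouse heart extract (3 libraries) under the skin in Titermax Gold adjuvant, or the adjuvant alone (4 libraries). The protocol names more than 1 volume of emulsion for immunized mice and does not say which node library had which. No library was made from an uninjured heart, so heart against node is also tissue against tissue within infarcted mice. The labels number the samples but do not say whether each came from a separate mouse, so each p-value concerns these samples alone, whose spread may be technical. EdgeR and DESeq2 also pool spread over the segments or pairs, whose shares sum to a whole and are not independent. Their p-values can therefore be smaller than the spread of a single segment over these samples would give.

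Heart libraries were made from 5000 cells and held 2426715 to 5126910 reads in 3156 to 5247 clones. Node libraries were made from 500000 cells and held 7534295 to 9235800 reads in 45452 to 291639 clones. If reads followed cells, 1 cell of a heart library would hold 0.02% of its reads. PCR reads without molecular identifiers are not independent molecules, so intervals on shares cover counting error only. In the smallest library, heart 1, the Wilson 95% interval of the TRBJ2-1 share ran from 15.20% to 15.29%, and in the other libraries it was narrower.

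The label was checked against the sequences. The most frequent last 6 residues of TRBJ2-1 CDR3s were NYAEQF, which ended 26.7% of distinct TRBJ2-1 clones and 35.5% of their reads. The last 4, AEQF, were kept by 95.5% of clones and the last 3, EQF, by 99.0%, whereas 0% of distinct clones with other TRBJ segments ended in EQF. The 5 most abundant TRBJ2-1 clones of each heart are printed first, because they held 54.3%, 40.8% and 22.5% of the TRBJ2-1 reads of hearts 1, 2 and 3. Each is given as listed with its TRBV segment, from the alanine after the conserved cysteine to the last phenylalanine of the entry.

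heart 1, TRBV14: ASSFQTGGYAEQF
heart 1, TRBV14: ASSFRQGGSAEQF
heart 1, TRBV19: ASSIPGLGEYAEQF
heart 1, TRBV19: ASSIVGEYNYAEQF
heart 1, TRBV15: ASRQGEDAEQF
heart 2, TRBV14: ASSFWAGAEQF
heart 2, TRBV19: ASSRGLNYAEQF
heart 2, TRBV19: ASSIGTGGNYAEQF
heart 2, TRBV14: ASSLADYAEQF
heart 2, TRBV14: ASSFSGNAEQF
heart 3, TRBV19: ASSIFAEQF
heart 3, TRBV19: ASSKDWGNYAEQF
heart 3, TRBV19: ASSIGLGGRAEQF
heart 3, TRBV5: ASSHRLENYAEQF
heart 3, TRBV19: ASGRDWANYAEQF

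All 15 end in AEQF and no sequence occurs more than once among them. TRBV19 was the V segment of 8 of them and TRBV14 of 5, and all 5 TRBV14 clones belong to hearts 1 and 2.

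TRBJ2-1 held 15.2% of reads in heart 1, 18.4% in heart 2 and 11.6% in heart 3, against 9.85%, 9.87% and 9.79% in MI nodes 1, 2 and 3. All 3 hearts lay above all 3 MI nodes, and the hearts differed from each other far more than the MI nodes did. The means were 15.1% ± 3.42 in hearts and 9.84% ± 0.0416 in MI nodes (SD, n = 3 each), a difference of 5.25 percentage points or 0.62 on the log2 scale. TRBJ2-1 ranked 2, 1 and 1 among the 11 segments in hearts 1, 2 and 3, and between 5 and 6 in the MI nodes.

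Sham nodes 1 to 4 had TRBJ2-1 shares of 9.43%, 10.4%, 10.5% and 11.4%, with a mean of 10.4% ± 0.799 (SD, n = 4). Sham node 4, at 11.4%, came close to heart 3. Myosin nodes had 9.24% and 9.16%, and heart extract nodes had 9.43%, 8.84% and 9.28%. Adjuvant nodes 1 to 4 had 8.82%, 9.04%, 9.78% and 9.48%. The means were 9.20% ± 0.0562 in myosin nodes (n = 2), 9.18% ± 0.307 in heart extract nodes (n = 3) and 9.28% ± 0.431 in adjuvant nodes (SD, n = 4), and the antigen means lie within the range of the adjuvant nodes. In the order of means, hearts came first, then sham, MI, adjuvant, myosin and heart extract nodes. The ranges of sham and MI nodes overlapped, and so did those of all axillary groups.

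**Figure D1:**
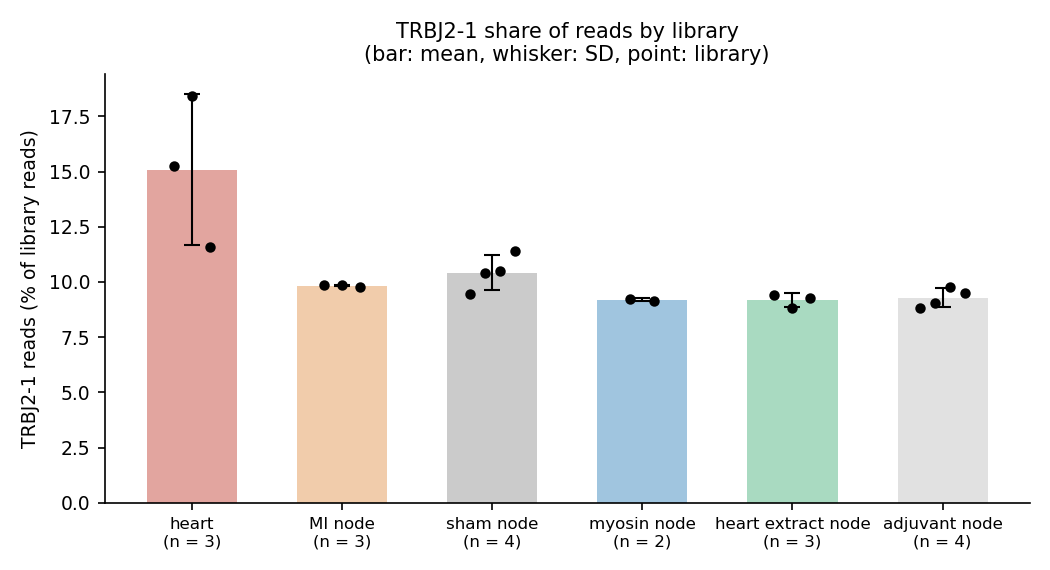
TRBJ2-1 reads as a percentage of all reads of each library, by group; bars are means, whiskers are SDs and points are libraries. The 3 hearts lie between 11.6% and 18.4%, and the 16 node libraries between 8.82% and 11.4%.

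Among the 11 TRBJ segments, TRBJ2-1 was the 1 with all hearts above all MI nodes (9.09% of segments), and 3 of 11 did not overlap in either direction (27.3%). The other 2, TRBJ2-7 and TRBJ2-4, lay lower in every heart. TRBJ2-4 held 5.70%, 4.24% and 7.55% in hearts 1, 2 and 3, against 8.70% to 9.04% in MI nodes. Shares of a library sum to a whole, so a segment that gains reads lowers the share of the others. Other segments peaked in a single heart: TRBJ2-3 held 16.6% in heart 1, TRBJ1-4 17.4% in heart 2 and TRBJ1-2 11.2% in heart 3, each with another heart below the MI nodes. TRBJ1-4 also lay above the MI nodes in heart 1 (13.4% against 12.5% to 12.6%). TRBJ2-2 came close to TRBJ2-1 in pattern, with 6.40%, 8.28% and 5.50% in hearts 1, 2 and 3 against 5.51% to 5.71% in MI nodes. Only heart 3 did not lie above. The excess of TRBJ2-1 in heart 3, 1.76 points over the MI node mean, was the smallest of the 3.

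**Figure D2:**
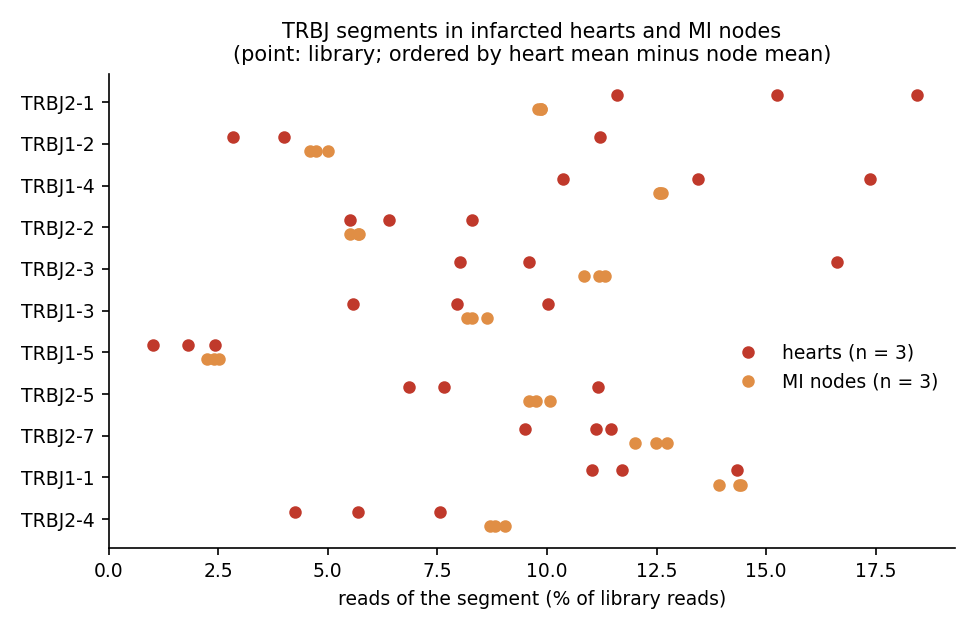
Share of library reads for each of the 11 TRBJ segments in 3 hearts and 3 MI nodes, each point a library, ordered by the difference of means. TRBJ2-1 has its hearts at 11.6%, 15.2% and 18.4% to the right of MI nodes that lie at 9.79% to 9.87%.

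Clones of at least 1% of a library held most TRBJ2-1 reads of heart 1, a smaller part of those of heart 2 and none in heart 3. In heart 1, 5 clones of at least 1% of the library together held 8.28% of it, which was 54.3% of all TRBJ2-1 reads. In heart 2, 5 such clones held 7.52% of the library and 40.8% of TRBJ2-1 reads. Another 23 clones of 0.1% to 1% held 8.10% of that library and 44.0% of its TRBJ2-1 reads. Heart 3 had no TRBJ2-1 clone of that size, and its share lay in 36 clones of 0.1% to 1% that held 9.63% of the library and 83.0% of TRBJ2-1 reads. The TRBJ2-1 reads of the hearts thus lay in clones of unlike size. A few large clones held most TRBJ2-1 reads in heart 1, and clones of middle size did in heart 3. In heart 2, large and middle-sized clones held similar parts.

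Clones under 0.02% of reads, fewer than 1 cell of a heart library would give, held 0.238%, 0.307% and 0.229% of library reads in hearts 1, 2 and 3. In MI nodes 1, 2 and 3 they held 9.85%, 9.82% and 9.65% of library reads, which is nearly all of TRBJ2-1 there. The number of clones that held 50% of TRBJ2-1 reads was 5, 7 and 15 in hearts, against 2656, 2993 and 1469 in MI nodes. This concentration was not particular to the segment. For the other TRBJ segments pooled, 44 to 62 clones held 50% of their reads in hearts and 13528 to 24845 in MI nodes. Counts for that pool are not on the same footing as those for TRBJ2-1 alone. The libraries also differ in sorted cells, 5000 for a heart and 500000 for a node, which moves with these counts, and its part in them was not tested.

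**Figure D3:**
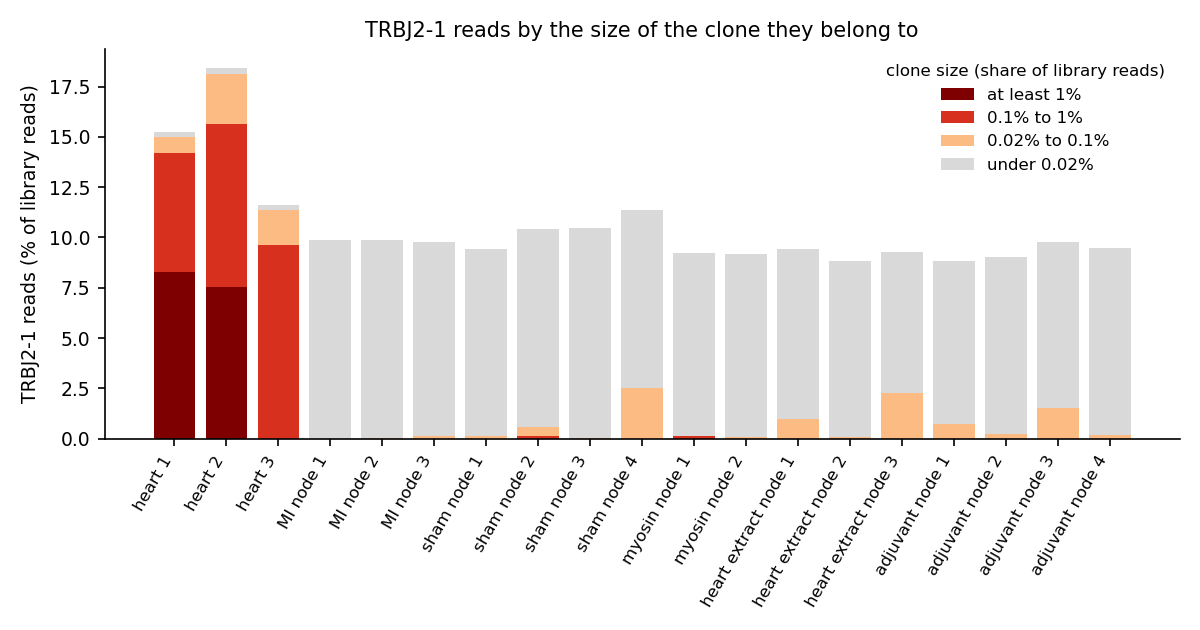
TRBJ2-1 reads of each library as a percentage of all its reads, split by the size of the clone they belong to. Clones of at least 1% make up 8.28% and 7.52% of hearts 1 and 2. Clones of 0.1% to 1% make up 5.93%, 8.10% and 9.63% of hearts 1, 2 and 3, and node bars consist mostly of clones under 0.02%.

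The most abundant TRBJ2-1 clone of heart 1 was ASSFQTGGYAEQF with TRBV14, at 2.04% of reads (Wilson 95% interval 2.02% to 2.06%) and rank 4 in that library. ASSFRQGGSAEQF (TRBV14, 1.84%), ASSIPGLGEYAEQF (TRBV19, 1.63%), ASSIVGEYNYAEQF (TRBV19, 1.56%) and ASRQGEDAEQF (TRBV15, 1.23%) followed. In heart 2, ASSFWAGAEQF with TRBV14 held 2.57% of reads (2.56% to 2.59%) and ranked 3 in the library. Behind it came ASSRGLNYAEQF (TRBV19, 1.48%), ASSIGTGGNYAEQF (TRBV19, 1.28%), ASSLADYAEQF (TRBV14, 1.16%) and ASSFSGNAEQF (TRBV14, 1.04%). The largest TRBJ2-1 clone of heart 3, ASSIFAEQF with TRBV19, held only 0.651% of reads (0.644% to 0.658%) and ranked 19. Next were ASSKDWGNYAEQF (TRBV19, 0.640%), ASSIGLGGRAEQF (TRBV19, 0.495%), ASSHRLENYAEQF (TRBV5, 0.432%) and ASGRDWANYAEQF (TRBV19, 0.390%). Among the 10 most abundant clones of all segments, TRBJ2-1 had 3, 3 and 0 in hearts 1, 2 and 3, and among the 100 most abundant it had 15, 16 and 14. MI nodes 1, 2 and 3 had 2, 4 and 10 TRBJ2-1 clones among their 100 most abundant.

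The raised share was also measured with large clones given less weight. With the 100 most abundant CDR3s of each library left out, TRBJ2-1 held 10.1%, 13.9% and 14.2% of the remaining reads in hearts 1, 2 and 3, against 9.84% to 10.03% in MI nodes. Heart 1 then lay just above the MI nodes while heart 3 became the highest, and the difference of means was 2.76 points. This cut takes away far more of a heart library (3156 to 5247 clones) than of an MI node library (179014 to 291639 clones). Counting each clone with at least 0.02% of reads once, TRBJ2-1 made up 42 of 378 clones in heart 1 (11.1%), 77 of 474 in heart 2 (16.2%) and 71 of 575 in heart 3 (12.3%). MI nodes had only 30, 30 and 43 clones of that size, of which 0, 2 and 4 carried TRBJ2-1, so these node shares rest on few clones. Among the heart clones of that size, TRBJ2-7 was the most frequent segment in heart 1 (15.1%) and heart 3 (13.6%), and TRBJ2-1 in heart 2.

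TRBJ2-1 made up 11.6%, 14.8% and 11.3% of all distinct clones in hearts 1, 2 and 3, against 10.3%, 10.3% and 9.81% in MI nodes. Most of the heart entries behind this measure were rare variants of large clones. Of heart TRBJ2-1 clones, 76.6%, 78.8% and 79.2% differed by 1 residue from a clone with the same TRBV, TRBJ and length and at least 100 times their reads, against 1.48%, 1.42% and 6.52% in MI nodes. In the other nodes the share ran from 2.27% (sham node 3) to 35.4% (heart extract node 3). The rule can be met only beside a large clone, so hearts and nodes are not on the same footing here. The largest TRBJ2-1 clone had 49436 reads in heart 1 and 1260 in MI node 1. Clones of the other TRBJ segments had nearly the same shares in hearts, 77.1%, 77.1% and 74.5%. These variants held 0.875% to 1.16% of TRBJ2-1 reads in hearts. Without them, an alternative chosen after seeing the data, the shares of distinct clones were 11.9%, 13.9% and 9.47% in hearts, against 10.4%, 10.3% and 9.83% in MI nodes. Heart 3 then lay below every MI node, and the difference of means was 1.56 points. The end AEQF was kept by 88.6% ± 1.95 of distinct TRBJ2-1 clones in hearts and 97.0% ± 0.160 in MI nodes, but by 98.1% ± 1.34 and 98.0% ± 0.114 of their reads (SD, n = 3 each).

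TRBJ2-1 was paired with all 22 TRBV segments listed, and the largest gains in hearts were in its pairs with TRBV19 (2.66 points over the MI node mean) and TRBV14 (1.97 points). The pair of TRBV19 and TRBJ2-1 held 4.37%, 6.88% and 3.96% of reads in hearts 1, 2 and 3, against 2.38%, 2.40% and 2.45% in MI nodes. All hearts lay above all MI nodes for this pair, with means of 5.07% ± 1.58 and 2.41% ± 0.0370 (SD, n = 3 each). The pair with TRBV14 held 3.92%, 6.01% and 0.780% in hearts, against 1.63%, 1.55% and 1.62% in MI nodes. It was high in hearts 1 and 2 and below all MI nodes in heart 3, so that its means of 3.57% ± 2.63 and 1.60% ± 0.0467 do not describe any single heart.

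Of the 22 pairs, 3 had all hearts above all MI nodes (TRBV19, TRBV4 and TRBV13-2), where 5.79% of all 242 pairs listed did, and 6 had all hearts below, where 42.6% did. Nothing is read from these counts, since the same contrast chose TRBJ2-1. The pair with TRBV4 held 1.14%, 1.03% and 0.910% in hearts, against 0.650%, 0.709% and 0.690% in MI nodes, and the groups did not overlap. The pair with TRBV1 held 1.31%, 0.550% and 1.37% in hearts, against 0.754%, 0.774% and 0.785% in MI nodes, with heart 2 below. TRBV13-2 paired with TRBJ2-1 in 0.578%, 0.510% and 0.558% of reads in hearts, against 0.428%, 0.433% and 0.421% in MI nodes, with means of 0.549% ± 0.0352 in hearts and 0.427% ± 0.00603 in MI nodes (SD, n = 3 each). The pair with TRBV5 ran the other way, at 0.675%, 1.13% and 1.63% in hearts, against 1.95%, 2.03% and 1.77% in MI nodes, and all hearts lay below all MI nodes. In all, 14 pairs had a higher mean in hearts and together added 6.24 points, while 8 had a lower mean and took away 0.983 points.

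A raised pair can come from more use of the V segment or from more TRBJ2-1 among the reads of that segment. Among TRBV14 reads, TRBJ2-1 made up 31.9% and 30.5% in hearts 1 and 2 and 4.71% in heart 3, against 12.0% to 12.3% in MI nodes. Among TRBV19 reads it made up 11.9%, 21.2% and 13.0% in hearts, against 10.02% to 10.3% in MI nodes, and among TRBV4 reads 22.0%, 15.4% and 16.002% in hearts, against 8.03% to 8.73% in MI nodes. In heart 1, 96.2% of TRBV15 reads carried TRBJ2-1, and 1 clone, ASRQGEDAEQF, made up most of them. With each part weighted by the mean of the heart and MI node shares, the mix of V segments gave 0.156, 0.913 and -0.0453 points of the excess in hearts 1, 2 and 3. The mix is a sum over all V segments, so more use of one can be offset by less use of another. It was not split by segment. The share of TRBJ2-1 within V segments gave 5.25, 7.68 and 1.80 points. Within TRBV14 alone, that share gave 2.50 and 3.01 points in hearts 1 and 2 and -1.11 points in heart 3. Within TRBV19 it gave 0.528, 3.11 and 0.756 points, in each heart less than the gain of the TRBV19 pair over the MI node mean. Within all other V segments together it gave 2.22, 1.57 and 2.16 points. In heart 3 that was more than the whole excess of 1.76 points.

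**Figure D4:**
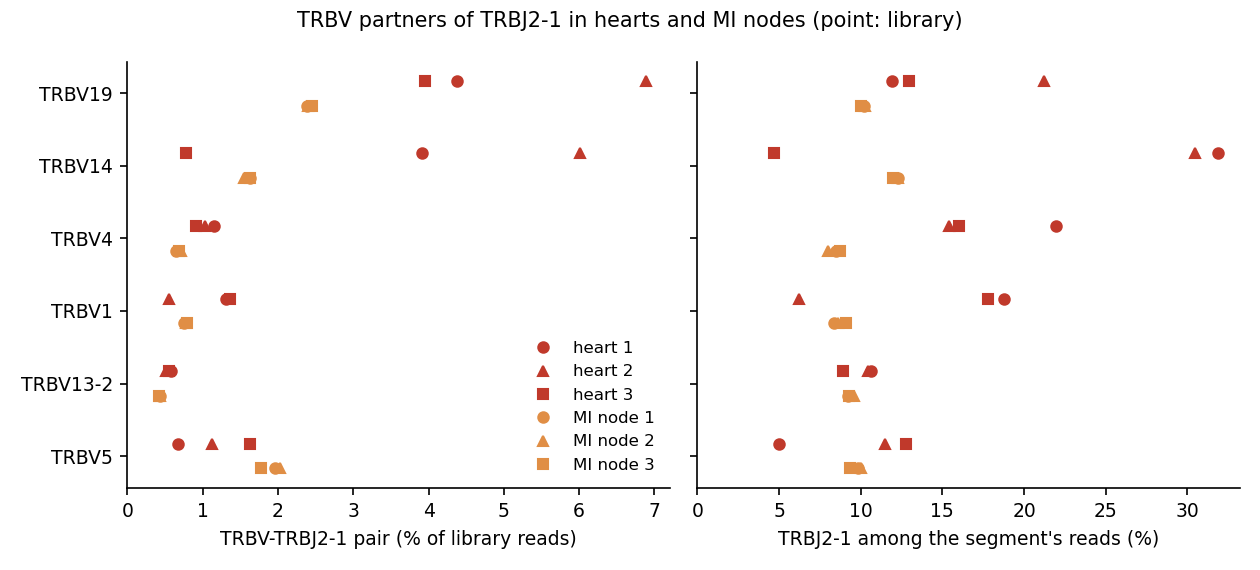
TRBV partners of TRBJ2-1 in 3 hearts and 3 MI nodes, as the pair's percentage of library reads (left) and as the percentage of the V segment's reads that carry TRBJ2-1 (right); symbols give the sample number. The TRBV14 pair holds 3.92% and 6.01% of reads in hearts 1 and 2 and 0.780% in heart 3, while the TRBV19, TRBV4 and TRBV13-2 pairs lie above and the TRBV5 pair below the MI nodes in all 3 hearts.

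The V name of some of these clones is uncertain. Among heart TRBJ2-1 clones with at least 0.02% of reads, 17 CDR3 sequences were listed with 2 TRBV segments in the same library, 11 with TRBV13-1 and TRBV13-2, 5 with TRBV4 and TRBV15, and 1 with TRBV3 and TRBV12-1. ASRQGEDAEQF had 29732 reads with TRBV15 and 8830 with TRBV4 in heart 1, and 374 and 131 in MI node 1. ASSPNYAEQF had 6683 reads with TRBV4 and 1520 with TRBV15 in heart 3, and 85 and 18 in MI node 3. The larger count was 1.72 to 4.52 times the smaller. Whether such a CDR3 is a single rearrangement counted under 2 names was not tested, and it touches the TRBV4, TRBV15 and TRBV13-2 values above. With each abundant CDR3 counted once whatever its TRBV, an alternative chosen after seeing the data, TRBJ2-1 made up 10.6%, 16.4% and 11.9% of CDR3s in hearts 1, 2 and 3.

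Hearts hardly shared TRBJ2-1 clones. Of 1627 such clones in hearts, 1 was listed in more than 1 heart, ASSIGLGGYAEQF with TRBV19, with 12478 reads in heart 1 and 2 reads in heart 3. Of 11260 heart clones with other TRBJ segments, 19 were listed in more than 1 heart. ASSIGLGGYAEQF was also listed in 5 node libraries, with 19, 74 and 202 reads in MI nodes 1, 2 and 3 and 133 and 369 reads in the myosin nodes. It differs only at position 9 from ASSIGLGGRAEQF, the TRBV19 clone with 25356 reads in heart 3. Its 2 reads in heart 3 thus meet the rule given above for rare variants of large clones. Whether they come from a separate rearrangement was not tested. Most of the heart clones in these counts, with TRBJ2-1 or with other TRBJ segments, met that rule too.

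Clones of 2 hearts that have the same TRBV and length and differ at 1 residue were counted among those with at least 0.02% of reads. There were 5 among 219 pairs for TRBJ2-1 (2.28%), and between 0% and 5.95% of pairs for the other TRBJ segments. Besides the TRBV19 pair above, they were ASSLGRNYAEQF in heart 2 and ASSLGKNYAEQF in heart 3 (TRBV14), and GARTGGYAEQF in heart 1 and GARLGGYAEQF in heart 3 (TRBV20). The other 2 used TRBV4, namely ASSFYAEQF in heart 2 with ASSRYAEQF in heart 3 and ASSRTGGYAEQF in heart 2 with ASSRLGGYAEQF in heart 3.

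Many of the largest heart TRBJ2-1 clones were listed in no node library. Of the 15 printed above, 7 were in no node, among them the 2 largest of heart 1 and the 2 largest of heart 2. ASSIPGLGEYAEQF and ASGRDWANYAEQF each appeared in 1 node with 2 reads, the lowest count the lists hold. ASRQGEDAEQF appeared only in MI node 1, which carries the same sample number as heart 1, with 374 reads. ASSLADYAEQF of heart 2 appeared in 1 node, myosin node 2, with 400 reads. A clone that is not listed in a node was not detectable at that depth, since each node library samples part of the node's cells.

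Of the heart clones printed above, those listed in several nodes were TRBV19 clones. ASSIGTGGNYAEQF of heart 2 was in 8 nodes, with 396, 106 and 172 reads in MI nodes 1, 2 and 3 and its highest node count, 2581, in heart extract node 3. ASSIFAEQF of heart 3 was also in 8 nodes, with 28, 148 and 178 reads in the MI nodes, 145 and 320 in sham nodes 1 and 3, and 1121 in heart extract node 2. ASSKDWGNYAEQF of heart 3 was in 6 nodes, with 113 reads in MI node 1 and up to 349 in heart extract node 2. Sham and adjuvant nodes were among those that listed these clones, so none of these 3 was found only after infarction or antigen. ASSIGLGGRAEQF of heart 3 was in 2 nodes, with 164 reads in sham node 1 and 42 in myosin node 1.

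Across all heart TRBJ2-1 reads, 27.6% in heart 1, 26.7% in heart 2 and 30.6% in heart 3 belonged to clones listed in the MI node of the same sample number. For each heart this was the highest value of the 3 MI nodes. The other MI nodes listed 22.3% and 15.5% of the TRBJ2-1 reads of heart 1, 19.8% and 22.3% of those of heart 2, and 29.8% and 27.2% of those of heart 3. For other TRBJ segments the node of the same number was also the highest, at 40.99%, 48.6% and 45.2% for hearts 1, 2 and 3, against 22.6% to 35.7% for the other MI nodes. The labels do not say whether a heart and a node of the same number came from the same mouse. Sham node 3, with no infarct, listed 34.3% of heart 3 TRBJ2-1 reads, the highest of any node for that heart. Nodes differ in clones listed, with 272267 in sham node 3 and 63299 in sham node 4, which listed 0.00135% of heart 3 TRBJ2-1 reads. The part of this difference in the overlap was not tested.

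Of heart TRBJ2-1 clones with at least 0.02% of reads, 20 of 42 (47.6%), 32 of 77 (41.6%) and 29 of 71 (40.8%) were listed in no node in hearts 1, 2 and 3. For other TRBJ segments the shares were 39.3%, 34.8% and 34.5%. In any MI node, 45.2%, 44.2% and 46.5% of the TRBJ2-1 clones were listed, against 49.1%, 54.2% and 55.4% of the others. TRBJ2-1 ranked 4, 2 and 2 from the lowest of the 11 segments in this measure, and the difference from the others was not tested.

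**Figure D5:**
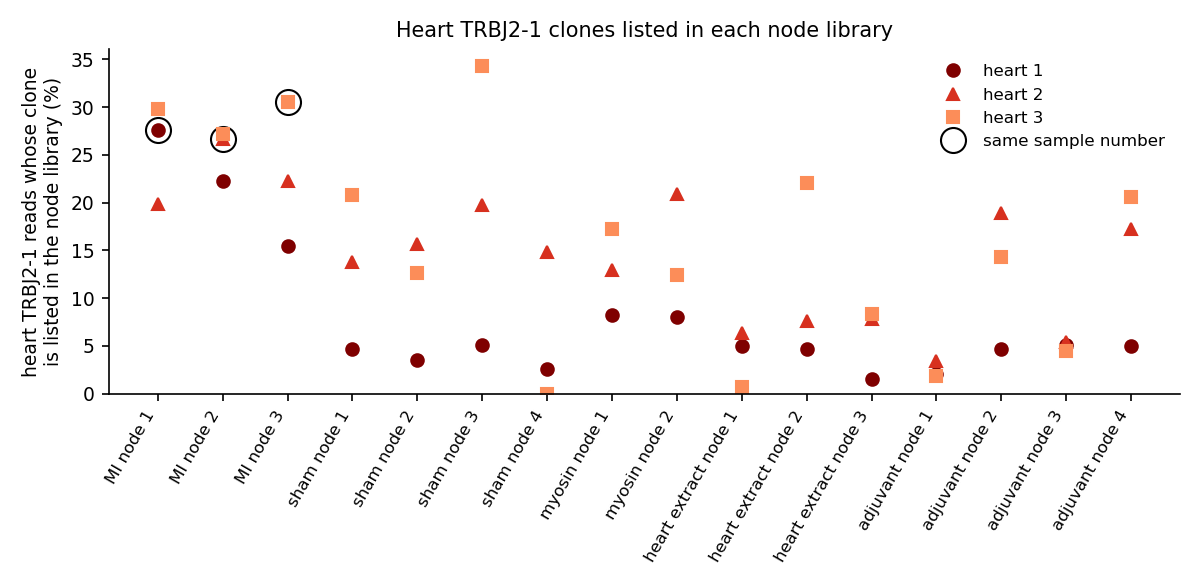
Percentage of each heart's TRBJ2-1 reads whose clone is also listed in each of the 16 node libraries; circles mark the MI node with the same sample number as the heart. Same-number values are 27.6%, 26.7% and 30.6%, and sham node 3 reaches 34.3% for heart 3.

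Contrasts between nodes were tested on the 16 node libraries. MI was first set against sham surgery. The MI node shares were part of the choice of TRBJ2-1, which favoured a segment that is low in MI nodes, so the p-values of this contrast are not independent of that choice. The contrasts that follow do not compare MI nodes. TRBJ2-1 held 9.84% ± 0.0416 in MI nodes (n = 3) and 10.4% ± 0.799 in sham nodes (SD, n = 4), a log2 fold change of -0.08 (SE 0.0473) that did not pass edgeR's quasi-likelihood test (adjusted p 0.152). EdgeR called 0 of 11 TRBJ segments (0%), with 3 at an unadjusted p under 0.05 and 0 calls by DESeq2. Sham node 1, at 9.43%, was the lowest of its group. Without it the fold change was -0.13 with an edgeR adjusted p of 0.0125, and 8 of 11 segments passed. Whether TRBJ2-1 passed between MI and sham nodes thus turned on sham node 1. Of the 22 pairs of TRBJ2-1 with a TRBV segment, 0 passed between MI and sham nodes by edgeR and 0 had an unadjusted p under 0.05, and of all 239 pairs tested edgeR called 0 (0%), with 5 at an unadjusted p under 0.05 and 0 calls by DESeq2.

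Immunization with cardiac antigen was set against adjuvant alone. The 3 contrasts share the adjuvant nodes. TRBJ2-1 held 9.18% ± 0.307 after heart extract (n = 3) and 9.20% ± 0.0562 after myosin (n = 2), against 9.28% ± 0.431 after adjuvant (SD, n = 4). The log2 fold changes were -0.01 for heart extract (SE 0.0473, edgeR adjusted p 0.869), -0.01 for myosin (SE 0.0536, 0.986) and -0.01 for both antigens together (SE 0.0415, 0.913). EdgeR called 0 of 11 segments in each (0%), with 0 at an unadjusted p under 0.05 and 0 calls by DESeq2. Among the 22 TRBJ2-1 pairs edgeR called 0 in each contrast, with 2, 0 and 1 at an unadjusted p under 0.05 for heart extract, myosin and both antigens, and 0 calls by DESeq2. Over all 239 pairs edgeR also called 0 (0%) in each.

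Mediastinal nodes after sham surgery were set against axillary nodes after adjuvant. Site and treatment cannot be told apart here. TRBJ2-1 held 9.43%, 10.4%, 10.5% and 11.4% in sham nodes, against 8.82%, 9.04%, 9.78% and 9.48% in adjuvant nodes. Sham node 1 lay within the range of the adjuvant nodes and the other sham nodes lay above it. The log2 fold change was 0.17 (SE 0.0438), which passed edgeR's test (adjusted p 5.08e-04). With only the groups compared in the fit, it was again 0.17 but with a larger SE (0.0694, edgeR adjusted p 0.0249). EdgeR called 8 of 11 segments in this contrast (72.7%), 4 higher and 4 lower, so most segments passed, and DESeq2 called 9. DESeq2 gave TRBJ2-1 a smaller log2 fold change of 0.10 (DESeq2 adjusted p 0.0216). TRBJ2-2 (0.24), TRBJ2-4 (0.25) and TRBJ2-5 (0.18) also rose, and TRBJ1-1 (-0.28), TRBJ1-2 (-0.14), TRBJ1-3 (-0.14) and TRBJ1-4 (-0.19) fell, on the log2 scale. All 4 that rose belong to the TRBJ2 cluster, the J segments beside the second constant gene, and all 4 that fell to the TRBJ1 cluster beside the first. With distinct clones in place of reads the TRBJ2-1 fold change was 0.04 (edgeR adjusted p 0.204) and the call was lost.

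By V partner, 6 of the 22 TRBJ2-1 pairs rose in sham mediastinal nodes and 0 fell by edgeR, where 40 of all 239 pairs rose (16.7%) and 29 fell (12.1%). DESeq2 called 4 TRBJ2-1 pairs and 77 of all pairs. TRBV19 with TRBJ2-1 held 2.57%, 2.66%, 2.45% and 3.22% of reads in sham nodes, against 1.85%, 2.27%, 2.07% and 2.19% in adjuvant nodes, with no overlap. Its log2 fold change was 0.38 (SE 0.0866, edgeR adjusted p 0.00538). The pair with TRBV1 held 0.739% ± 0.0446 in sham nodes and 0.616% ± 0.0264 in adjuvant nodes (log2 0.26, edgeR adjusted p 0.0106). Rarer pairs had larger fold changes, with TRBV29 at 0.0919% ± 0.0552 in sham nodes and 0.0317% ± 0.0118 in adjuvant nodes (log2 1.53, edgeR adjusted p 0.0130), and TRBV16 at 0.136% ± 0.0239 and 0.0793% ± 0.0246 (log2 0.78, edgeR adjusted p 0.0248; SD, n = 4 each). TRBV14, the other main partner in hearts, had 1.84% ± 0.202 in sham nodes and 1.57% ± 0.222 in adjuvant nodes and did not pass (edgeR adjusted p 0.0816). The count of 6 pairs dropped to 2 without sham node 3, to 3 without adjuvant node 1 and to 1 with TMM factors.

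Over the 16 node libraries, the segments whose log2 share followed that of TRBJ2-1 most closely were TRBJ2-4 (Pearson r 0.92, Spearman rho 0.93), TRBJ2-7 (0.78, 0.78) and TRBJ2-2 (0.77, 0.69). All 5 TRBJ1 segments ran the other way, down to r -0.96 for TRBJ1-4. These are descriptions over 16 libraries whose shares sum to a whole, and they hold 2 node sites. Within the 9 axillary libraries r was 0.67 for TRBJ2-4 and 0.71 for TRBJ2-7 but -0.21 for TRBJ2-2, and within the 7 mediastinal libraries it was 0.97, 0.80 and 0.67. TRBJ2-4 and TRBJ2-7, which followed TRBJ2-1 in nodes, were the 2 segments that lay below the MI nodes in every heart.

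Node repertoires held TRBJ2-1 in many small and mostly private clones. Of 158266 TRBJ2-1 clones in nodes, 82.7% were listed in 1 node, against 80.7% of 1337482 clones with other TRBJ segments. Only 3 TRBJ2-1 clones were in all 16 nodes, against 93 clones of the other segments, and they are shown as the most public receptors that carry it.

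TRBV5, all 16 nodes: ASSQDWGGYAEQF
TRBV5, all 16 nodes: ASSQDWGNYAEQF
TRBV20, all 16 nodes: GARTGGYAEQF

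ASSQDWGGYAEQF held 0.00430% to 0.0252% of reads per node, with a mean of 0.0109% ± 0.00556 (SD, n = 16), and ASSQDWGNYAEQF held 0.000355% to 0.0217%, with a mean of 0.00997% ± 0.00645. Neither was listed in a heart. GARTGGYAEQF held a mean of 0.00328% ± 0.00150 of node reads and was listed in heart 1, where it had 5652 reads.

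The most abundant TRBJ2-1 clone of a node never reached the size of the largest heart clones. In MI nodes 1, 2 and 3 it held 0.0167%, 0.0291% and 0.0623% of reads. The MI node 1 clone was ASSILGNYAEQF with TRBV19, which was listed in 8 nodes, and the MI node 3 clone was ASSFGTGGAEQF with TRBV14, which was listed in 6. The MI node 2 clone had 15 residues and TRBV14. The highest values among nodes were 0.127% for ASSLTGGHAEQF (TRBV14) in myosin node 1 and 0.113% for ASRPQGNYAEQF (TRBV14) in sham node 2. Over the other nodes the leading TRBJ2-1 clone held between 0.0234% and 0.0832% of reads, and TRBV14 was its V segment in 11 of all 16 nodes.

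CDR3 length and clone structure of TRBJ2-1 were compared between node groups after each library was drawn down to 7534295 reads. The mean CDR3 length over TRBJ2-1 reads was 12.35 ± 0.0326 residues in MI nodes and 12.31 ± 0.0552 in sham nodes (exact two-sided permutation p 0.429, adjusted p 0.643). In hearts 1, 2 and 3 it was 12.69, 12.15 and 12.38 residues. The 10 most abundant TRBJ2-1 clones held 1.68% ± 0.646 of TRBJ2-1 reads in MI nodes (n = 3) and 3.48% ± 1.97 in sham nodes (SD, n = 4), with overlapping ranges (exact permutation p 0.286, adjusted p 0.643). TRBJ2-1 made up 9.58% ± 0.203 of distinct clones in the 5 antigen nodes and 9.89% ± 0.150 in the 4 adjuvant nodes (exact permutation p 0.0397, adjusted p 0.119 over 3 measures), which did not pass after adjustment. The remaining 6 of the 9 permutation tests had adjusted p-values between 0.802 and 1. The smallest exact p these designs allow is 0.0286 for MI against sham, 0.00794 for antigen against adjuvant and 0.0286 for sham against adjuvant.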

How the data were processed

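The deposited lists give a raw read count for every CDR3 amino acid sequence with its TRBV and TRBJ segment, 1 list per sample, and the values were used as deposited by the authors. Per the labels' protocols, RNA of sorted cells was amplified by amplicon rescued multiplex PCR with gene-specific primers at a commercial provider and sequenced on Illumina HiSeq. The alignment, the filters and the genome build were not given in the sources used here. The lowest count listed was 2. No list was identical to another.

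Reads were summed per TRBJ segment and per TRBV-TRBJ pair with Python 3.11.15, pandas 2.3.3 and numpy 2.4.6. EdgeR 4.0.16 in R 4.3.3 tested the sums of the 16 node libraries with its quasi-likelihood test (robust, legacy settings, library total as offset, no replicate block) and Benjamini-Hochberg adjustment over 11 segments or over 239 pairs with at least 10 reads in at least 4 libraries, at 0.05. The fits were tested on simulated data. DESeq2 1.42.0, TMM factors, distinct clones, entries of at least 10 reads, replicate blocks, fits on only the groups compared and left-out libraries were alternatives. Single values per library were compared by exact permutation (scipy 1.17.1) on the absolute difference; the routine's default, which doubles a 1-sided p, was replaced after the first p-values had been seen, and no adjusted call changed.

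TRBJ2-1, the lists and the alternatives were chosen with earlier results of these data known. Named were TRBJ2-1, the segments with an adjusted p under 0.05, the 3 segments most correlated with it, its 6 leading V partners in hearts and in MI nodes (the same 6), up to 4 passing pairs by smallest p, the 5 leading clones of each heart, the leading clone of each node, clones in all nodes and clones in more than 1 heart. Clones 1 residue apart, CDR3s with 2 TRBV segments, TRBV14 between sham and adjuvant nodes and TRBV15 were chosen after their values were seen. So were TRBJ2-2 in hearts and the segments that peaked in a single heart. Sample numbers were checked for pairing over clones listed in at least 8 nodes. Deviations of same-numbered node libraries correlated at -0.0326 to 0.0269 (12 pairs) and those of others at -0.0365 to 0.0355. No pairing of node libraries by number was detected by this measure. It cannot exclude one, since no known pair was there to show that the measure would detect it.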

Additional observations from a re-analysis of the deposited data

How the results depend on the processing

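Under the alternatives 277 values kept their direction and side of the threshold, 23 changed sign, 11 moved, 1 lost and 1 gained a call. Ranges are over leaving out each library in turn. The heart excess of TRBJ2-1 over MI nodes ran from 3.58 points (without heart 2) to 7.00 points, was 5.28 without entries under 10 reads, and shrank to 1.56 points on distinct clones without rare 1-residue variants. Between MI and sham nodes the log2 fold change ran from -0.13 (without sham node 1, edgeR adjusted p 0.0125) to -0.04, was 0.0023 on distinct clones and -0.05 with a replicate block, and the count of segments ran from 0 to 8, with 1 under TMM factors, 2 without edgeR's legacy settings and 1 without MI node 1 or sham node 4. Between sham and adjuvant nodes it ran from 0.12 to 0.21, with 0.17 under the replicate block, 0.10 by DESeq2 (adjusted p 0.0216) and 0.0354 on distinct clones (edgeR adjusted p 0.204), and 8 to 9 segments passed. The count of TRBJ2-1 pairs there ran from 2 to 8, with 1 under TMM factors and 1 on distinct clones. The antigen fold changes sat near 0 and took either sign: -0.0387 to 0.0119 for heart extract, -0.0367 to 0.0131 for myosin and -0.0379 to 0.0119 for both, with 0.0129, 0.0335 and 0.0212 under the replicate block, none passing, and 1 segment passed for myosin on distinct clones. The replicate block changed no other call. The share of distinct clones ran from -0.0829 to 0.193 points between MI and sham nodes and from 0.0803 to 0.342 points between sham and adjuvant nodes, where it was -0.0605 without entries under 10 reads. Mean CDR3 length ran from 0.0134 to 0.0540 residues between MI and sham nodes, from -0.0390 to 0.0212 between antigen and adjuvant nodes and from -0.0581 to 0.0020 between sham and adjuvant nodes. The share of the 10 leading clones ran from -2.52 to -1.08, from -0.692 to 0.110 and from -0.709 to 0.725 points in the same 3 contrasts. None of these results had an adjusted exact permutation p under 0.05, but with a library left out MI against sham cannot pass, since its smallest exact p is then 0.0667 or 0.100. The cause of these shifts was not tested. Groups of 2 to 4 libraries limit every contrast, and read counts without molecular identifiers cannot separate cells from amplification.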
